A study of Mus musculus with 14 samples.

Results

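The matrix metalloproteinases and their inhibitors were followed across the 4 groups of a mouse colon study of the glucocorticoid receptor (GR) in the intestinal epithelium. The set holds 10 genes, 8 metalloproteinase genes (Mmp2, Mmp3, Mmp7, Mmp8, Mmp9, Mmp10, Mmp13 and Mmp14) and 2 tissue inhibitors of metalloproteinases (Timp1 and Timp3), out of 19096 gene symbols on the array and 15537 with a probe that could be tested. They were found through the accession that the array design gives each probe, which led to 13 probes, all 13 of them tested, with a second probe for Mmp9, Mmp14 and Timp1. The genes were picked with results from all 4 groups in view, and the comparison that led to each pick is not recorded, so their values are given as measurements and no test of them is offered as support.

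Total RNA of whole colon from female C57BL/6 mice aged 4-6 months on chow diet was hybridised to 14 Agilent 1-colour arrays. The 4 groups were Flox on regular water (n = 4), GR iKO on regular water (n = 4), Flox given 2.5% dextran sodium sulfate (DSS) in the drinking water for 7 days (n = 3), and GR iKO given the same DSS (n = 3). Flox mice carry GR fl/fl alleles without a recombinase, and GR iKO mice carry the same alleles with Villin-cre, a recombinase known to act in the intestinal epithelium, without induction, so that the other cell types of the sampled wall keep the receptor. DSS in the drinking water injures the colonic epithelium and is a standard way to induce colitis in mice.

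Metalloproteinases are zinc-dependent enzymes that are made as inactive proenzymes, either secreted or held at the cell surface, and cut collagens, laminin, other matrix proteins and many cytokines once the propeptide is removed. The tissue inhibitors bind the active site and block it. In inflamed gut the enzymes are known to come mostly from fibroblasts, macrophages and neutrophils, and some from the epithelium at ulcer edges.

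The 5 members Mmp13, Mmp3, Mmp10, Mmp8 and Mmp7 lie in that order in the metalloproteinase cluster on mouse chromosome 9, which holds 10 of the 23 Mmp genes of the RefSeq table. Windows from 250 bases before to 50 bases after the annotated start were given for 8 of the 10 members (RefSeq, GRCm38.p6); Mmp2 and Mmp9 had none. These 8 members had 9 windows. The AP-1 motif TGANTCA, searched on both strands before the start, was present for Mmp3, Mmp7, Mmp10 and Mmp13. This was 4 of the 9 windows, against 6.75% of 32851 windows. The same 4 genes held the TATA motif TATAAA there, also in 4 of 9 windows, against 12.4%. The second of the 2 Mmp7 windows held neither motif. These are the stretches of 120 bases that end at the base before the start, shown because the 4 genes sit in one cluster and share both motifs, which are in capitals; all 4 read on the + strand, and Mmp7, which has 2 windows, is shown for the first, chr9:7691970-7692089.
Mmp3 (chr9:7445702-7445821): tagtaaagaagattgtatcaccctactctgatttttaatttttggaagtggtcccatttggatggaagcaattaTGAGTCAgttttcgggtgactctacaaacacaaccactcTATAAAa
Mmp10 (chr9:7502222-7502341): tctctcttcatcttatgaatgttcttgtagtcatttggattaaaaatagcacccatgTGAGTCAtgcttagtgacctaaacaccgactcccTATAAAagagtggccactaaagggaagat
Mmp7 (chr9:7691970-7692089): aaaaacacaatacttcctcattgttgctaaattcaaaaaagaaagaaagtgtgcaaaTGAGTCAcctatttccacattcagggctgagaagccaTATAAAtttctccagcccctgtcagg
Mmp13 (chr9:7272394-7272513): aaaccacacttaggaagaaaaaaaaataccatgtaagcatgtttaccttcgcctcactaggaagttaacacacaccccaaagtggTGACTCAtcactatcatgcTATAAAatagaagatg

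Mmp3, Mmp7 and Mmp10 held the AP-1 letters TGAGTCA and Mmp13 held TGACTCA. The first base of the match lay at -46 from the start for Mmp3, at -63 for both Mmp10 and Mmp7, and at -35 for Mmp13. The PEA3 motif AGGAAG was found before the start in 7 of the 8 members, all but Mmp10. This was 8 of their 9 windows, against 29.5% of windows. The NF-kB motif was found in 0 of 9, against 7.25%. A match is a run of letters only and is no measure of binding.

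All levels below are log2 values of the processed signal after the 75th percentile of its array was subtracted, so 0 stands for a probe at that percentile and each unit is a doubling of signal. A probe's level is not compared with that of another probe, because probes differ in brightness. The 75th percentile itself ran from 262 (Flox DSS replicate 4) to 1003 in signal units, and between 62.6% and 71.3% of the probes passed the scanner's test against background. All 11 epithelial markers checked were well above background on every array. Nr3c1, which encodes GR, had a mean level of 1.19 in Flox and 0.39 in GR iKO colon on water, a log2 difference of -0.80 (limma, adjusted p = 0.00911), and on DSS the levels of 1.27 and 0.43 did not overlap between genotypes (adjusted p = 0.0922). Across its 4 tested probes the difference ran from -0.80 to -1.07 on water, with 2 called, and from -0.40 to -0.86 on DSS, with none called and 1 overlapping. Whether these probes lie in the deleted stretch was not tested, and cells other than epithelium keep the gene.

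**Figure D1:**
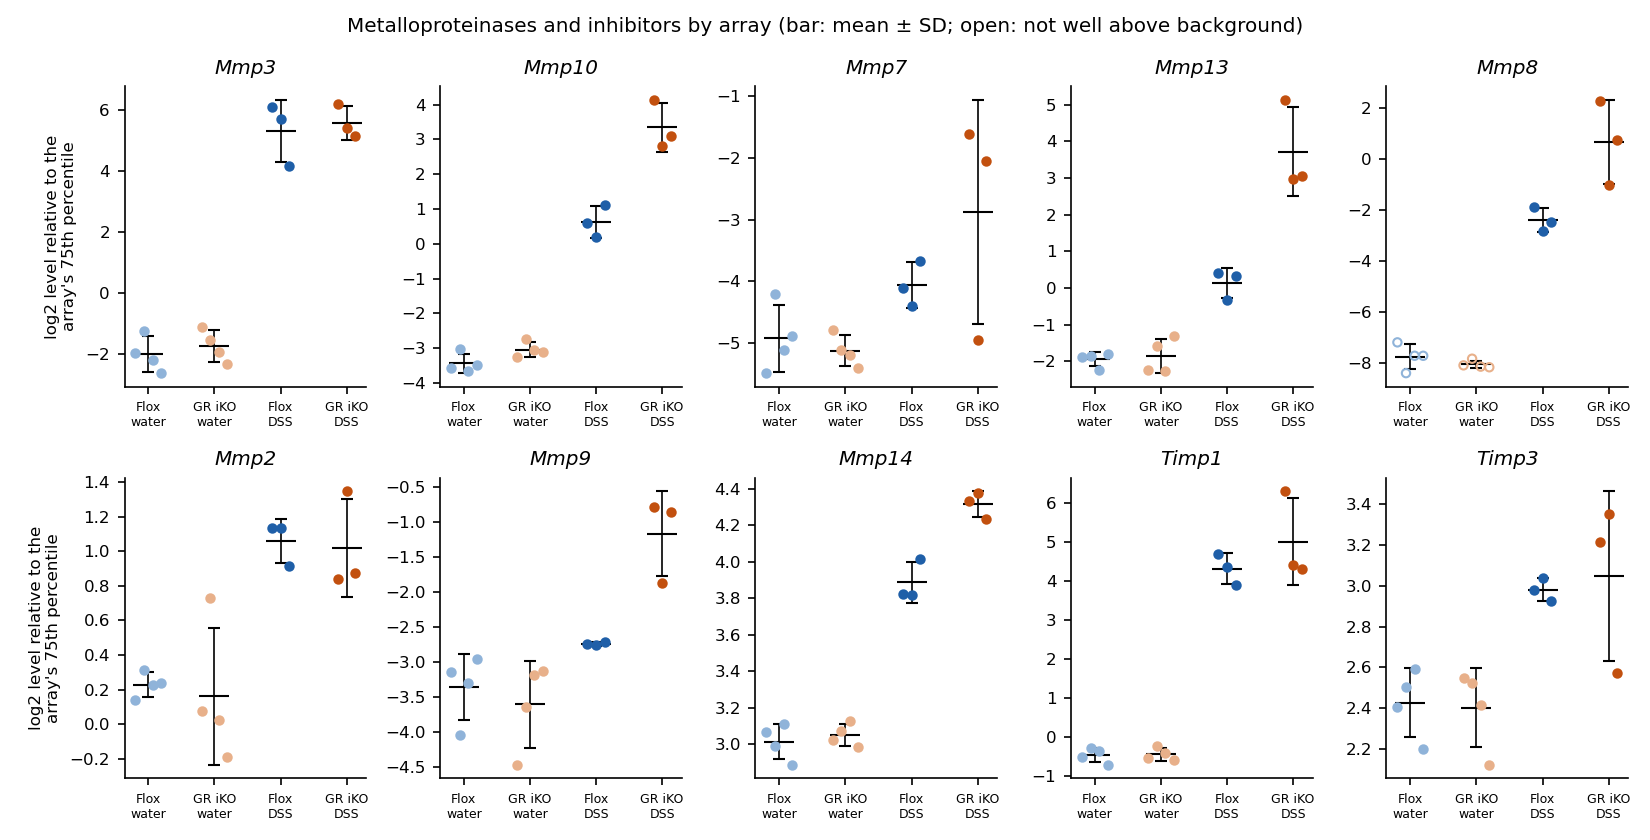
Level of the probe standing for each of the 10 genes on every array, in log2 relative to the array's 75th percentile (vertical axis, a separate scale for each gene), by group (horizontal axis). Points are arrays, open where the probe was not well above background, and bars show the mean with the SD (n = 4 on water, n = 3 on DSS). Mmp8 has open points on all 8 water arrays, and the DSS arrays lie above the water arrays of their genotype for 9 of 10 genes in each genotype.

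On DSS every member had a higher mean than on water in both genotypes. In Flox colon 9 of the 10 genes had all 3 DSS arrays above all 4 water arrays, which 25.8% of all probes tested also had, the exception being Mmp7. In GR iKO colon the count was also 9 of 10, against 22.6% of probes, with Mmp7 again the exception. The limma fit across all 29520 tested probes called 8 members higher in Flox and 10 in GR iKO at an adjusted p under 0.05, where 21.8% and 19.0% of all probes were called higher and 47.2% and 38.8% called in either direction. Since the genes were chosen on these arrays, nothing is read from these counts. The median difference of the 10 genes was 1.48 in Flox and 3.95 in GR iKO on the log2 scale, beside -0.09 and -0.02 for all probes. In whole tissue, more cells of a kind and more RNA per cell cannot be told apart.

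Stromelysins are secreted enzymes that cut proteoglycans, laminin and fibronectin and also activate other proenzymes. Mmp3, stromelysin 1, read -1.97, -1.24, -2.22 and -2.64 on the Flox water arrays and -1.12, -1.54, -1.95 and -2.34 on the GR iKO water arrays. On DSS it read 6.10, 5.72 and 4.17 in Flox and 6.22, 5.42 and 5.15 in GR iKO. Every DSS array stood far above every water array, and the genotypes overlapped on both water and DSS. The log2 difference between DSS and water was 7.35 ± 0.56 (SE) in Flox and 7.33 ± 0.56 in GR iKO, or 164-fold and 161-fold, the largest of the members whose probe was above background on water.

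Mmp10, stromelysin 2, separated the genotypes on DSS. Its levels on water were -3.58, -3.03, -3.66 and -3.48 in Flox and -3.25, -2.75, -3.07 and -3.13 in GR iKO. On DSS they were 0.60, 0.19 and 1.12 in Flox and 4.15, 2.82 and 3.09 in GR iKO, with no overlap between the genotypes. DSS minus water came to 4.07 ± 0.31 in Flox and 6.40 ± 0.31 in GR iKO, and GR iKO minus Flox on DSS to 2.72 ± 0.40, a 6.57-fold higher signal.

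Matrilysin, Mmp7, is a small secreted enzyme known for processing defensins in the small intestine. Its water levels were -5.49, -4.20, -5.12 and -4.89 in Flox and -4.79, -5.12, -5.19 and -5.41 in GR iKO. On DSS they were -4.10, -4.41 and -3.67 in Flox and -1.61, -4.95 and -2.06 in GR iKO. In GR iKO replicates 1 and 4 were high and replicate 3 lay within the water range, so both DSS groups overlapped with water. The differences were 0.87 ± 0.60 in Flox and 2.25 ± 0.60 in GR iKO, and the 3 GR iKO DSS arrays had an SD of 1.82. Without GR iKO DSS replicate 1 the difference was 1.62, and without replicate 4 it was 1.85, and neither was called.

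The collagenases cut fibrillar collagen across the triple helix. Mmp13, collagenase 3, read -1.88, -1.85, -2.23 and -1.79 in Flox and -2.23, -1.59, -2.26 and -1.32 in GR iKO on water. On DSS it read 0.42, -0.32 and 0.34 in Flox and 5.14, 2.98 and 3.05 in GR iKO. All 3 GR iKO arrays on DSS stood above the Flox arrays, with replicate 1 the highest. The DSS difference was 2.08 ± 0.45 in Flox and 5.57 ± 0.45 in GR iKO, and the genotype difference on DSS, 3.58 ± 0.58, was the largest among the 10 genes.

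Mmp8, the neutrophil collagenase, was not well above background on any of the 8 water arrays. On DSS it was well above background on all 6 arrays, at -1.88, -2.81 and -2.48 in Flox and 2.29, -1.01 and 0.76 in GR iKO. The GR iKO arrays again lay above the Flox arrays, spread over more than 3 log2 units. Set against the lowest signal that counted as above background, DSS colon had at least 11.7-fold more Mmp8 signal in Flox and at least 92.4-fold more in GR iKO. GR iKO minus Flox on DSS, where both groups were measured, was 3.07 ± 0.70 (8.39-fold).

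Gelatinases act on denatured collagen and on basement membrane collagen. Mmp9, gelatinase B, read -3.15, -4.05, -3.30 and -2.95 in Flox and -4.47, -3.65, -3.19 and -3.13 in GR iKO on water. On DSS it read -2.75, -2.76 and -2.72 in Flox and -0.78, -1.87 and -0.85 in GR iKO. The Flox DSS arrays lay close together and just above the highest water array, whereas the GR iKO DSS arrays were clear of all others. DSS minus water was 0.62 ± 0.49 in Flox, not called, and 2.45 ± 0.49 in GR iKO, and the genotype difference on DSS was 1.58 ± 0.63. A second Mmp9 probe gave 0.41 ± 0.57 in Flox, with DSS and water arrays overlapping, 2.03 ± 0.57 in GR iKO, and 1.49 ± 0.72 between genotypes on DSS without overlap.

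Mmp2, gelatinase A, which fibroblasts make constitutively, showed little difference between genotypes. Its levels were 0.14, 0.31, 0.22 and 0.24 in Flox and 0.08, 0.73, 0.03 and -0.19 in GR iKO on water. On DSS they were 1.13, 1.14 and 0.91 in Flox and 0.84, 1.35 and 0.87 in GR iKO, above water in each genotype and overlapping between genotypes. The difference with DSS was 0.83 ± 0.26 in Flox and 0.86 ± 0.26 in GR iKO, a 1.78-fold and 1.81-fold higher signal, and that between genotypes on DSS was -0.04 ± 0.34. Its call was lost in Flox without DSS replicate 1 or 2 (0.79 in both cases), and in GR iKO without DSS replicate 3 (0.70) or 4 (0.93).

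Mmp14 encodes a membrane-bound metalloproteinase that activates the Mmp2 proenzyme at the cell surface. The brighter probe read 3.07, 2.99, 3.11 and 2.89 in Flox and 3.02, 3.07, 3.13 and 2.99 in GR iKO on water. On DSS it read 3.83, 3.82 and 4.02 in Flox and 4.33, 4.38 and 4.24 in GR iKO, with narrow groups that did not overlap with water or with each other. DSS minus water was 0.87 ± 0.11 in Flox and 1.26 ± 0.11 in GR iKO, and GR iKO minus Flox on DSS was 0.43 ± 0.15. The dimmer probe gave 0.63 ± 0.16 and 0.82 ± 0.16 for DSS, but its genotype groups on DSS overlapped (-0.02, -0.14 and -0.61 in Flox against 0.20, -0.07 and -0.08 in GR iKO, difference 0.28 ± 0.21).

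Of the inhibitors, Timp1, a secreted and inducible one, had the larger difference. Its levels on water were -0.50, -0.29, -0.36 and -0.71 in Flox and -0.54, -0.23, -0.40 and -0.60 in GR iKO. On DSS they were 4.68, 4.36 and 3.88 in Flox and 6.29, 4.40 and 4.31 in GR iKO. Replicate 1 of the GR iKO DSS group stood apart and the other two lay within the Flox range, so the genotypes overlapped. DSS minus water was 4.77 ± 0.35 in Flox and 5.45 ± 0.35 in GR iKO (27.4-fold and 43.6-fold), and 4.91 ± 0.48 and 5.35 ± 0.48 by the second probe. The genotype difference on DSS was 0.69 ± 0.45, and 0.80 ± 0.61 by the second probe.

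Timp3, the inhibitor that stays bound to the matrix, had the smallest differences with DSS. It read 2.41, 2.50, 2.59 and 2.20 in Flox and 2.55, 2.52, 2.42 and 2.12 in GR iKO on water. On DSS it read 2.98, 3.04 and 2.92 in Flox and 3.22, 3.36 and 2.57 in GR iKO, where replicate 4 lay just above the GR iKO water arrays. The difference with DSS was 0.56 ± 0.21 in Flox and 0.65 ± 0.21 in GR iKO. Its call was lost in Flox on leaving out any of the 3 DSS arrays (0.53 to 0.58) or water replicate 1 (0.55), 2 (0.58) or 4 (0.48), and in GR iKO without DSS replicate 1 (0.56) or 3 (0.49), and in both genotypes with normexp background correction.

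**Figure D2:**
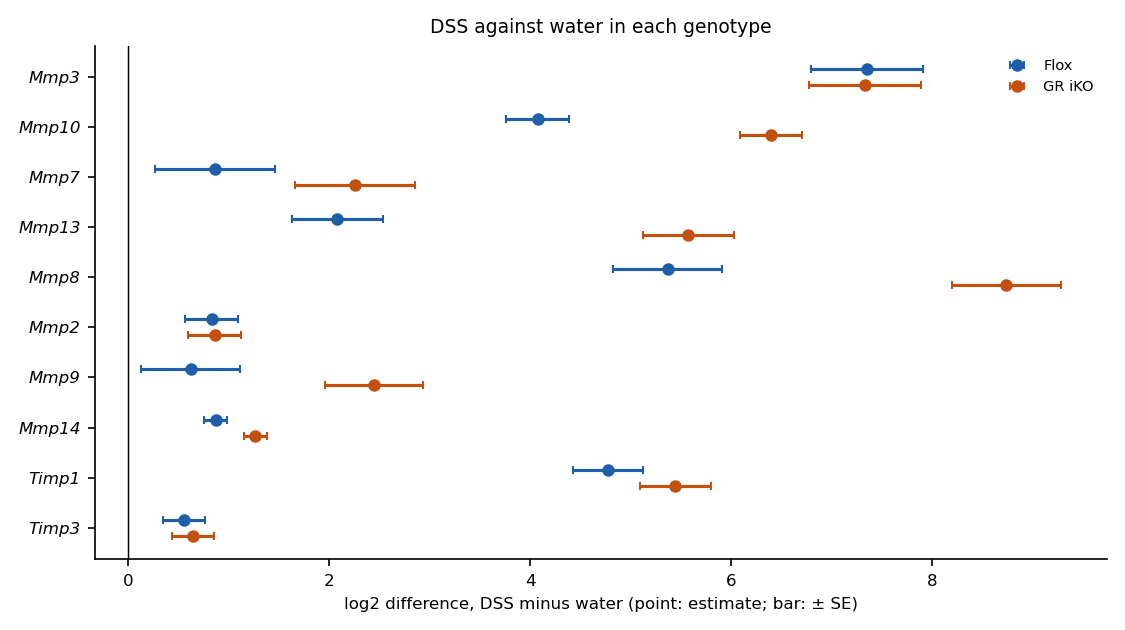
Log2 difference between DSS and water (horizontal axis, point with SE bar) for each of the 10 genes (vertical axis) in Flox (blue) and GR iKO (orange). The points of Mmp3, Mmp2, Timp1 and Timp3 lie near each other in the genotypes, and those of Mmp10, Mmp13, Mmp8, Mmp9 and Mmp7 lie further right in GR iKO; for Mmp8 the points are fitted values against water arrays below background and are no measured fold.

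These differences are relative to the bulk of each array's signal. Scaled instead to the spike-in transcripts, the median difference with DSS of all probes was -2.44 in Flox and -0.98 in GR iKO, and 4 members in Flox (Mmp3, Mmp8, Mmp10 and Timp1) and 8 in GR iKO (all but Mmp2 and Timp3) kept a higher level on DSS. Mmp2, Mmp7, Mmp9, Mmp13, Mmp14 and Timp3 in Flox took the other sign there. Within single slides, each of which held arrays of several groups, DSS exceeded water in 3 of 3 slides in both genotypes for all 10 genes, apart from Mmp7 in Flox, which was higher in 2 of 3. For every gene but Mmp7 this follows from the lack of overlap between DSS and water arrays and adds no support.

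On water the genotypes overlapped for the 9 genes measured there, where 1.27% of probes had every GR iKO array above and 0.989% every one below. The differences ran from -0.25 for Mmp9 to 0.39 for Mmp10, and Mmp8 was below background in both groups. The limma fit called 0 of 10 and 0.0237% of all probes. At an unadjusted p under 0.05 stood 0 of 10, beside 985 of the 29520 probes.

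On DSS, Mmp8, Mmp9, Mmp10, Mmp13 and Mmp14 had all 3 GR iKO arrays above all 3 Flox arrays, 5 of 10, which 11.2% of all probes also had. Mmp2, Mmp3, Mmp7, Timp1 and Timp3 overlapped. The median difference of the members was 0.94, beside 0.03 for all probes. Under spike-in scaling the median of all probes was 1.25. No member was called by limma (0 of 10), where 0.0203% of all probes were called. At an unadjusted p under 0.05 stood 5 of the 10, as did 5205 of the 29520 probes. The DSS arrays varied more than the water arrays and carried a weight of 0.495 against 1.70. Without GR iKO DSS replicate 3, the array with the lowest Mmp7, Mmp8, Mmp9, Mmp10 and Mmp13 of its group, 3 members were called (Mmp8 at 3.91, Mmp10 at 2.98 and Mmp13 at 3.95), and without Flox DSS replicate 4, the array of lowest overall signal, 2 were (Mmp10 at 2.96 and Mmp13 at 3.68). The calls over all probes went from 6 to 716 and to 810 in the same fits. Both genotypes on DSS shared 2 slides. Since every GR iKO array lay above every Flox array for the 5 genes, a higher level within each slide follows and adds no support. The differences were 0.87 and 3.23 for Mmp8, 0.88 and 1.87 for Mmp9, 2.22 and 1.97 for Mmp10, 2.57 and 2.72 for Mmp13, and 0.55 and 0.22 for Mmp14. Mmp3, Mmp7, Mmp2, Timp1 and Timp3 had opposite signs on these slides. Each group kept its own position on the slides, so position and group cannot be told apart.

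**Figure D3:**
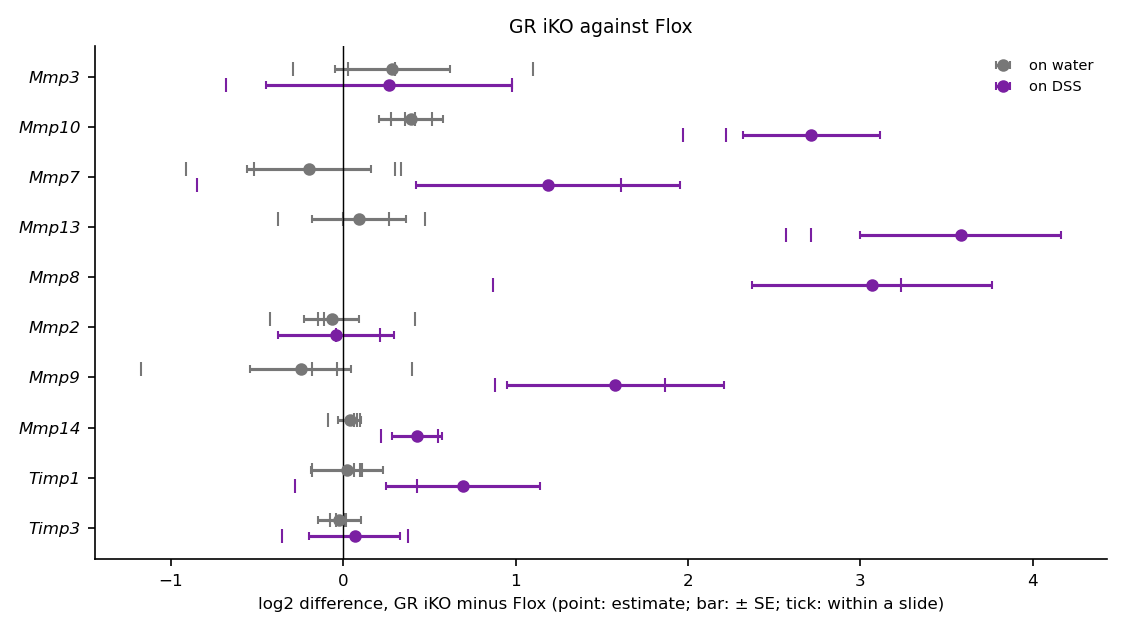
Log2 difference between GR iKO and Flox (horizontal axis, point with SE bar) for each gene (vertical axis) on water (grey) and on DSS (purple), with ticks for the difference within each slide that held both groups. Mmp8 has no grey point, since it was below background on water. The grey points lie between -0.25 and 0.39, and the purple points of Mmp13, Mmp8 and Mmp10 are at 3.58, 3.07 and 2.72.

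The interaction, which sets the DSS difference in GR iKO against that in Flox, was above 0 for 9 of the 10 genes. It ran from -0.02 ± 0.79 for Mmp3 to 3.49 ± 0.64 for Mmp13, with 2.32 ± 0.44 for Mmp10, 1.82 ± 0.69 for Mmp9, 0.39 ± 0.16 for Mmp14 and 0.67 ± 0.49 for Timp1. The limma fit called 0 of 10 (5 at an unadjusted p under 0.05) and 0% of all probes (4368 at an unadjusted p under 0.05). Without GR iKO DSS replicate 3, Mmp8 was called, and it was the 1 member called, beside 48 of all probes. For Mmp8 the interaction rests on water values below background and is not given. Mmp8 is nevertheless among the 9 genes above 0 and the 5 at an unadjusted p under 0.05, so its part in these counts is no measured difference. Of the other genes above 0, Mmp2 (0.03 ± 0.37) and Timp3 (0.09 ± 0.29) were within their SE of 0.

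Markers of several cell types moved with DSS. Of 10 neutrophil markers listed, 8 could be tested; up to 6 of them were not well above background on a water array, and their summed level on DSS stood 6.40 to 7.87 log2 units over the water mean in Flox and 8.20 to 9.96 in GR iKO. These ranges did not overlap between the genotypes, and neither did those of smooth and skeletal muscle given below. The sums are of linear signal, so the brightest probes weigh most. No marker of any list was called between genotypes on DSS. Of all single probes, 11.2% had every GR iKO array above every Flox array on DSS. The 10 macrophage markers summed to 0.52 to 1.35 in Flox and 1.02 to 1.94 in GR iKO, and the 10 fibroblast markers to 1.15 to 1.73 and 1.04 to 1.33. The 8 smooth muscle markers stood at 0.95 to 1.79 in Flox against -0.62 to 0.61 in GR iKO, the 11 epithelial markers at -0.56 to 0.12 against -0.21 to 0.42, the 7 endothelial markers at 0.62 to 0.72 against -0.15 to 1.16, and 5 skeletal muscle markers at 0.93 to 1.61 against -0.15 to 0.43. By limma 7 of the 8 neutrophil markers rose with DSS in Flox and 8 in GR iKO, 6 and 8 of the 10 macrophage markers, 9 and 9 of the 10 fibroblast markers, where Fap fell in both, and 6 and 0 of the 8 smooth muscle markers; 1 epithelial marker rose in each genotype, and 4 of 11 fell in Flox and 1 in GR iKO. Of the 7 endothelial markers 3 rose in Flox and 1 in GR iKO. Beside these marker counts, 21.8% of all probes rose and 25.4% fell in Flox, and 19.0% and 19.7% in GR iKO. The skeletal muscle markers did not move as a group. Of these 5, 2 rose and 1 fell in Flox, with a median difference of 0.03. In GR iKO 0 rose and 1 fell, with a median of -0.04. The part of these cell types in the values of the metalloproteinases was not tested.

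**Figure D4:**
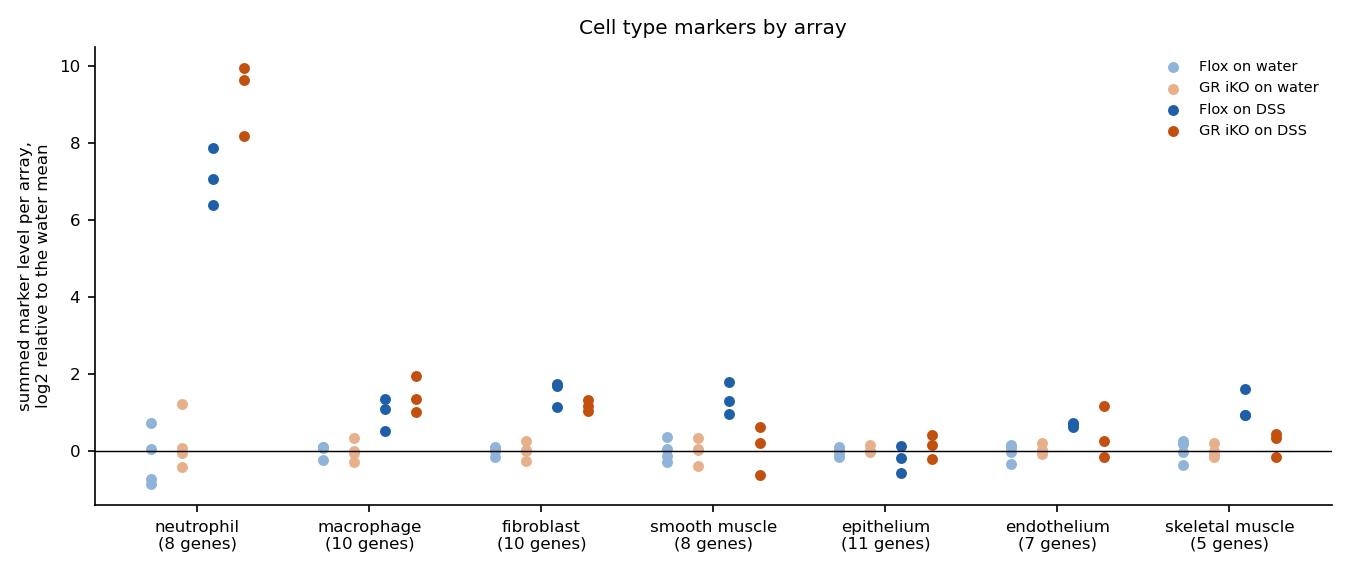
Summed level of each list of cell type markers on every array (vertical axis, log2 relative to the mean of the 8 water arrays) by list (horizontal axis), coloured by group. The neutrophil sums on DSS lie at 6.40 to 7.87 in Flox and 8.20 to 9.96 in GR iKO, far from the other lists.

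Of the other 15 metalloproteinase genes, 13 were on the array and 8 had a probe that could be tested. Mmp12, macrophage elastase, was well above background on 1 of 14 arrays and was not tested. With DSS, 6 rose in Flox and 4 in GR iKO, where 21.8% and 19.0% of probes rose. None fell, where 25.4% and 19.7% did, and none was called between genotypes or in the interaction. Under spike-in scaling 0 rose and 3 fell in Flox and 2 rose in GR iKO. The median difference between GR iKO and Flox on DSS was -0.63, beside 0.03 for all probes. Of the 8, Mmp15, Mmp19 and Mmp25 were above 0 there. Under spike-in scaling, which moves all probes of a comparison together, the all-probe median there was 1.25, so the sign of -0.63 depends on the scaling. Mmp19 rose by 1.88 ± 0.34 in Flox (limma, adjusted p = 0.000729) and by 2.70 ± 0.34 in GR iKO (adjusted p = 0.000102). Mmp25, a membrane-bound enzyme of leukocytes, was below background on all water arrays and rose at least 4.33-fold in GR iKO (adjusted p = 8.89e-05). In Flox it was called higher (adjusted p = 0.00237) but was above background on 1 of 3 DSS arrays, so no bound is given.

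The membrane-anchored Mmp17 rose by 1.59 ± 0.19 in Flox (limma, adjusted p = 5.14e-05) and by 0.58 ± 0.19 in GR iKO (adjusted p = 0.0305). Mmp24 was called higher in Flox (adjusted p = 0.000747), where 1 of 4 water arrays was above background, so that its estimate of 1.78 ± 0.32 rests mostly on water values below it. It was called higher in GR iKO as well (adjusted p = 0.0227). There the water arrays were all below background and 1 of 3 DSS arrays was above it, so no bound is given. Mmp16 and Mmp23 rose in Flox by 1.60 ± 0.35 and 0.87 ± 0.22 (adjusted p = 0.00269 and 0.0058), and measured 0.64 ± 0.35 and 0.34 ± 0.22 in GR iKO (adjusted p = 0.167 and 0.243). Mmp11, stromelysin 3, measured 0.67 ± 0.27 in Flox and 0.00 ± 0.27 in GR iKO (adjusted p = 0.0584 and 0.999). Mmp15 measured -0.62 ± 0.26 and 0.04 ± 0.26 (adjusted p = 0.0703 and 0.923). Except for Mmp19, Mmp25 and Mmp15, the estimate was lower in GR iKO than in Flox, and the interaction was called for none. Under spike-in scaling the median interaction of all probes was 1.43, so this order depends on the scaling too.

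The 6 further inhibitors listed were all tested. None was called between genotypes on DSS, where their median difference was -0.82, beside 0.03 for all probes. The sign of -0.82 depends on the scaling, since under spike-in scaling the all-probe median there was 1.25. With DSS, 4 rose and 1 fell in Flox, where 21.8% of all probes rose and 25.4% fell. In GR iKO 3 rose and 2 fell, beside 19.0% and 19.7%. Under spike-in scaling 1 rose and 4 fell in Flox and 1 rose and 2 fell in GR iKO. Timp2, which also takes part in activating the Mmp2 proenzyme, rose by 1.50 ± 0.19 in Flox (limma, adjusted p = 7.73e-05) and by 0.75 ± 0.19 in GR iKO (adjusted p = 0.00906). Timp4 fell by 2.60 on the log2 scale in GR iKO (SE 0.63, adjusted p = 0.00647) and measured -1.45 ± 0.63 in Flox (adjusted p = 0.0775). By their estimates, Timp1, Timp2 and Timp3 were higher and Timp4 lower on DSS in both genotypes, but under spike-in scaling Timp2 and Timp3 were lower in both as well.

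Reck, a membrane-anchored inhibitor, rose by 1.18 ± 0.22 in Flox (adjusted p = 0.000907) and measured 0.50 ± 0.22 in GR iKO (adjusted p = 0.09). The broad protease traps A2m and Pzp were below background on all water arrays and rose at least 7.02-fold and 3.09-fold in Flox (adjusted p = 4.79e-06 and 0.000269) and at least 6.16-fold and 1.07-fold in GR iKO (adjusted p = 8.86e-06 and 0.00937). Tfpi2, an inhibitor of plasmin and trypsin-like proteases, fell by 1.70 ± 0.26 in Flox and by 2.13 ± 0.26 in GR iKO (adjusted p = 0.000263 and 9.05e-05). It was above background on 1 of 3 DSS arrays in each genotype, so these estimates rest mostly on DSS values below background. With normexp background correction it measured 0.09 in Flox and -0.39 in GR iKO, neither called.

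**Figure D5:**
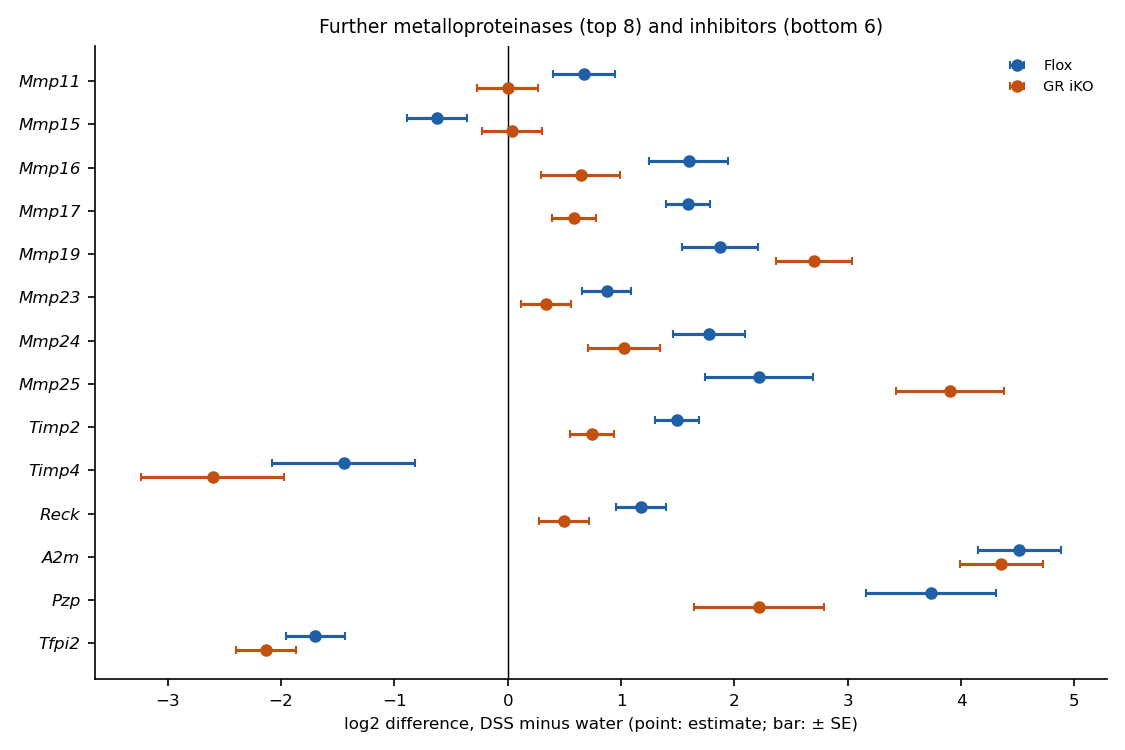
Log2 difference between DSS and water (horizontal axis, point with SE bar) for the 8 further metalloproteinases and 6 further inhibitors tested (vertical axis) in Flox (blue) and GR iKO (orange). Mmp19 and Mmp25 lie further right in GR iKO, Timp2 and Mmp17 further right in Flox, and Timp4 and Tfpi2 left of 0; Mmp25, A2m and Pzp, and Mmp24 in GR iKO, were below background on the water arrays, so that these points are no measured fold.

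The plasminogen system supplies plasmin, which removes the propeptide of several metalloproteinases. Of 11 genes tested in the list for it and for other activators, 6 rose and 1 fell in Flox and 8 rose and 1 fell in GR iKO. Beside this list and those that follow, 21.8% of all probes rose and 25.4% fell in Flox, and 19.0% and 19.7% in GR iKO. Under spike-in scaling 1 rose and 5 fell in Flox, and 4 rose and 1 fell in GR iKO. Plaur, the urokinase receptor, rose by 2.43 ± 0.41 in Flox and by 4.07 ± 0.41 in GR iKO (limma, adjusted p = 0.000501 and 2.69e-05). Serpinb2, an inhibitor of plasminogen activators, was below background on every water array and on the Flox DSS arrays, and rose at least 7.99-fold in GR iKO (adjusted p = 0.000452). Plg, plasminogen itself, rose from below background, at least 5.17-fold in Flox (adjusted p = 0.000156). Plg was also called higher in GR iKO (adjusted p = 0.0305). There it was above background on 2 of 3 DSS arrays, and DSS and water arrays overlapped, so no bound is given. Bsg, a surface glycoprotein known as an inducer of metalloproteinases, fell by 0.66 ± 0.12 in Flox and by 0.70 ± 0.12 in GR iKO (adjusted p = 0.000624 and 0.000636).

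Among 12 related Adam and Adamts proteases, 8 rose in Flox and 7 in GR iKO and none fell, and under spike-in scaling 1 rose and 6 fell in Flox and 4 rose and 3 fell in GR iKO. Adamts1 rose by 4.02 ± 0.24 in Flox and by 4.06 ± 0.24 in GR iKO (limma, adjusted p = 1.24e-06 and 9.41e-07), and Adamts4 by 3.43 ± 0.36 and 3.86 ± 0.36 (adjusted p = 2.06e-05 and 1.70e-05); both cut proteoglycans. Of 16 matrix proteins and binding partners, 13 rose in each genotype and none fell, whereas under spike-in scaling 2 rose in each and 8 fell in Flox. Spp1, osteopontin, a substrate of Mmp3 and Mmp7, rose by 5.83 ± 0.49 in Flox and by 4.28 ± 0.49 in GR iKO (adjusted p = 5.51e-06 and 5.80e-05). Lcn2, lipocalin 2, an antimicrobial protein of neutrophils and inflamed epithelium, rose by 4.98 ± 0.62 and by 6.53 ± 0.62 (adjusted p = 6.19e-05 and 1.87e-05).

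Of 13 AP-1 subunits and cytokines known to induce metalloproteinases, 9 rose in Flox and 10 in GR iKO and none fell, and under spike-in scaling 2 rose and 8 fell in Flox and 6 rose and 1 fell in GR iKO. Il6 was below background on every water array and rose at least 55.1-fold in Flox and 134-fold in GR iKO (limma, adjusted p = 1.36e-07 and 3.76e-08). Il1b rose by 5.49 ± 0.46 and by 7.76 ± 0.46 (adjusted p = 5.60e-06 and 9.79e-07). No gene of these 4 lists was called between genotypes on water or DSS, or in the interaction.

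To place each member among the other genes, levels were centred on each gene's mean over the 14 arrays and compared by the root mean square difference across 15460 genes. The arrays share 4 groups, so likeness here is mostly likeness of group means. Nearest to Mmp3 were Ptx3 (0.62 log2 units), Hp (0.68) and Chil1 (0.72), where Mmp3 itself had an SD of 3.82. Mmp10 was nearest to Gpr84 (0.43), Cemip (0.46) and Csf3 (0.54), with an SD of 2.87. The nearest to Mmp13 were Ifitm6 (0.65), Il17a (0.70) and Il1f9 (0.75), and those to Mmp8 were F10 (0.65), Wfdc21 (0.67) and Il1b (0.69). Timp1 lay nearest to Ccl7 (0.27), Epgn (0.31) and Socs3 (0.42), and Mmp9 to Nfe2 (0.32), Arl5c (0.39) and Mcemp1 (0.39).

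The members with small differences had other neighbours. Mmp2 lay nearest to Col13a1, Col1a2 and Snai2 at 0.15 each, with an SD of 0.49, and Mmp14 to Ahnak (0.12), Rnd3 (0.14) and Acadl (0.14), with an SD of 0.57. Timp3 was nearest to Ehd4 (0.14), Snx8 (0.14) and Coq10b (0.15), with an SD of 0.37. Mmp7 had its nearest genes, Psat1 (0.45), Tmem266 (0.49) and S100a11 (0.51), with an SD of 1.19. No gene was near to more than 1 member by this rule.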

How the data were processed

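The authors hybridised Cy3-labelled total RNA (500 ng) to 1-colour Agilent arrays, 1 array per numbered sample, and deposited scanner output of Agilent Feature Extraction 12.0.0.7 (background-subtracted, processed intensity per spot) and a value table of normalized log2 signals, for which Partek 6.6 is named in the submitters' processing notes. The labels number the replicates and do not say that each is a separate mouse, so errors cover the spread between arrays. The value table's columns correlated with the processed intensity at an r of at least 0.9988 and had equal quartiles on all arrays.

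From the deposited intensity, log2 processed signal minus the array's 75th percentile was taken, spots with non-uniformity or population outlier flags were left out, and spots of a probe were averaged. Probes well above background on at least 3 of 14 arrays were tested (29520 of 41174); a gene stands by its tested probe of highest mean level. Accessions of 28223 of 29245 RefSeq probes matched the gene table. Group means were fitted to all 14 arrays with limma 3.58.1 (R 4.3.3), with 1 array weight for the water and 1 for the DSS arrays, because DSS arrays varied more, followed by eBayes and Benjamini-Hochberg adjustment over all tested probes in each of 5 comparisons. Calls are adjusted p under 0.05. Probes not above background on any array of a group are given only as bounds against the lowest signal above background. A bound is given only where every array of the other group was above background. The scripts were tested on simulated data.

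The members and gene lists were chosen with earlier results of these data known. The text names the members, every tested further metalloproteinase and inhibitor, the 2 largest called rises and falls per further list, and the 3 nearest genes per member. One gene that this rule names is not reported here. Alternatives covered weights, arrays in the fit, scaling, background, filters, flags, probe choice, slide, replicate number and leaving out each array. The files hold no mean signal column, so normexp (offset 50) was run on median signals. The number of arrays limits the precision. The study's own test for these arrays is not given in the sources used here.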

Additional observations from a re-analysis of the deposited data

How the results depend on the processing

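For the 10 metalloproteinase and inhibitor genes, 14 alternatives and leaving out each of 14 arrays gave 1390 values of single differences, of which 1328 stayed within the spread between arrays, 56 moved (34 of them under spike-in scaling) and 6 that were called changed sign. Those 6 came from scaling to the spike-in transcripts: -1.53 for Mmp2, -0.28 for Mmp13, -1.49 for Mmp14 and -1.80 for Timp3 with DSS in Flox, and -0.10 for Mmp2 and -0.31 for Timp3 in GR iKO. Among differences with DSS that were not called, Mmp7 (-1.49) and Mmp9 (-1.74) in Flox took the other sign as well; that scaling moves all probes of a comparison together, by a median to -2.44 in Flox and -0.98 in GR iKO. It left 5 members called higher with DSS in GR iKO in place of 10, and 4 higher and 4 lower in Flox in place of 8 higher. Leaving out an array gave 6 to 8 members called with DSS in Flox, 8 to 10 in GR iKO, 0 to 3 between genotypes on DSS (2 without Flox DSS replicate 4, 3 without GR iKO DSS replicate 3) and 0 to 1 in the interaction (1 without GR iKO DSS replicate 3). Calls over all probes rose with them: between genotypes on DSS from 6 to 810 without Flox DSS replicate 4 and 716 without GR iKO DSS replicate 3, and in the interaction from 0 to 2 and 48. The Timp3 call was also lost with normexp in both genotypes, and in GR iKO with a separate weight per array and with only the arrays compared, while Mmp7 in Flox was called with normexp and with a separate weight per array.

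The genotype comparison on DSS called 0 members, but 5 with 1 shared spread, 5 with a separate weight per array, 2 with normexp background, 2 with trended and robust eBayes, 1 from the value table and 1 with the mean of a gene's probes. Over all probes the calls there were 6, but 3903 with 1 shared spread and 3493 with separate weights. They were 8 with normexp, 159 with trended and robust eBayes and 20 from the value table, and 10 of 15537 genes with the mean of a gene's probes. In the interaction they were 0, but 33 with 1 shared spread, 2063 with separate weights, 8810 under spike-in scaling and 6 with normexp. The interaction called 0 members, but 5 under spike-in scaling, 3 with a separate weight per array and 1 with normexp. With normexp, 66.1% of the probes called with DSS in Flox were higher in place of 46.2%, and 60.2% in place of 49.1% in GR iKO; under spike-in scaling these were 0.828% and 5.55%. The cause of these changes was not tested.

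With the replicate number as a block, 8 and 10 members were called with DSS in Flox and GR iKO and 0 in each of the other comparisons, as without it. Of 18 same-numbered pairs 9 had deviations correlated above 0.1, and all 18 lay between -0.23 and 0.31. Pairs of unlike number were not compared, so whether the numbers pair the samples cannot be told from this. Mmp8 on water, and the other genes given by bounds, are limited by signal over background.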
